A study of Mus musculus with 6 samples.

Results

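Conventional dendritic cells take up antigen in tissues, carry it to lymph nodes and present it to T cells. The type 1 subset, which depends on the transcription factors BATF3 and IRF8, is known for cross-presentation, the loading of antigen from other cells onto MHC class I for CD8 T cells. On maturation these cells stop sampling, raise costimulatory molecules and migrate. Described here are 9 genes known from these cells, found by symbol among the 16763 genes of the deposited table: Xcr1, Wdfy4, Naaa and Batf3, which are best known from type 1 cells; Flt3 and Zbtb46, shared by the conventional subsets; and Ly75, Fscn1 and Cd83, of antigen uptake and maturation. All 9 were present, and all 9 passed the filter on low counts that left 12891 genes tested.

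The libraries came from breast tumors of male BALB/c mice, induced with 4T1, a carcinoma line that arose in the mammary gland of a BALB/c mouse. In the DMDD liposome group (3 libraries) the mice received DMDD in liposomes, and in the model group (3 libraries) they bore these tumors untreated with it. DMDD is an abbreviation that the labels leave unexplained, and neither the dose, the schedule nor the age of the mice is stated. The sample descriptions call the other group only model and name no empty liposomes, so DMDD and its carrier cannot be told apart. The tumors were sequenced whole, so that the libraries mix carcinoma cells with immune cells, vessels and other host tissue, and fewer cells of a type cannot be told apart from less RNA per cell. The labels do not tie libraries to mice, so the spread behind each p-value is that of these samples and may not be that between mice.

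Libraries held between 13037500 and 15616840 counts, and a gene with 3 counts stood at 0.193 to 0.230 CPM (counts relative to the library total, scaled between libraries), a level at which counting error is large. Libraries differed in tissue content within groups. Markers of the epidermis (7 genes, with the Langerhans cell gene Cd207 among them) summed to 216 CPM in model replicate 2 and to 3.76 to 4.61 CPM in the others, and skeletal muscle markers summed to 110 and 240 CPM in DMDD liposome replicates 1 and 3 against 9.74 to 29.8 CPM in the other 4 libraries. Across the whole table edgeR's quasi-likelihood test put 0 of 12891 genes (0%) past the adjusted threshold, while 986 (7.65%) had an unadjusted p under 0.05, and DESeq2 on the same counts called 59. Without model replicate 1 edgeR called 112 (0.851%).

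None of the 9 dendritic cell genes passed the adjusted threshold of 0.05 in edgeR, and none did in DESeq2 or in the authors' deposited table. The deposited table called 0.346% of its genes, and DESeq2 called 0.408%. By edgeR's unadjusted p under 0.05, 1 of the 9 was higher in DMDD liposome tumors, Wdfy4, and 0 were lower, against 4.34% of all genes tested that were higher and 3.31% that were lower. Wdfy4 was also the 1 gene of the 9 whose groups did not overlap, against 12.9% of all genes tested, 7.21% higher and 5.66% lower. The log2 fold change, DMDD liposome over model, was above 0 for 7 of the 9, against 51.2% of all genes, with a median of 0.125 over the 9 beside 0.01 over all genes tested. Without DMDD liposome replicate 3 that median was -0.017, and 4 of the 9 were above 0.

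**Figure D1:**
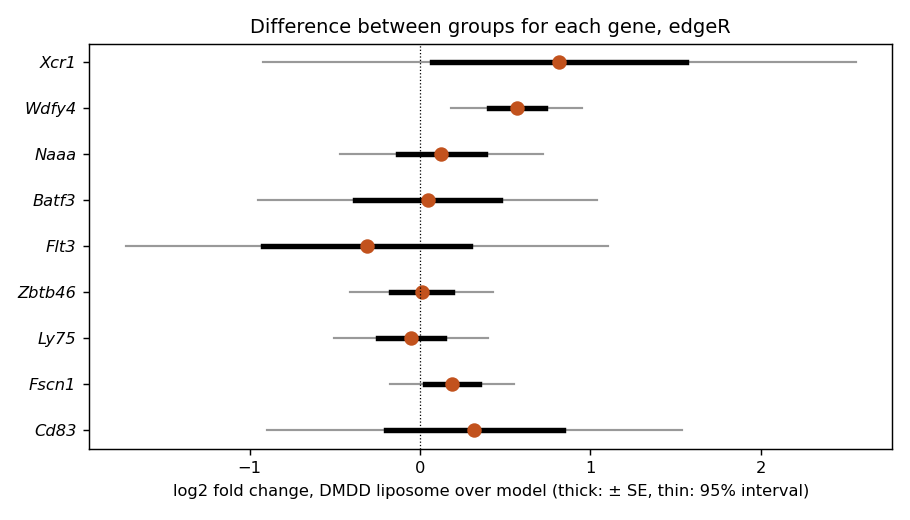
Log2 fold change of each gene, DMDD liposome over model, from edgeR with 3 libraries per group; thick bars are ± SE and thin bars the 95% interval. Of the 9 intervals, that of Wdfy4 alone lies wholly above 0, before any adjustment for the number of genes tested.

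The promoters of 8 of the 9 genes were matched by symbol in RefSeq sequences of build GRCm38.p6, which is not the build named for the deposited table, and Cd83 is named only. In the 250 bases before each start, both strands were searched for 5 motifs, chosen with the sequences in view; the matches found do not overlap one another. TGANTCA, the AP-1 site that BATF3 binds with a JUN protein, was found in 1 of the 8, Zbtb46, against 6.75% of all 32851 promoters. TGACGTCA, the cyclic AMP response element, was found in Fscn1 (1.55% of all), and AGGAAGT, the core bound by the myeloid factor PU.1, in Wdfy4 (7.69% of all). GAAANNGAA, the interferon-stimulated response element, and GGAANNGAA, the ETS-IRF composite element, (core letters of each) were in none of the 8, and in 7.13% and 6.99% of all promoters. A match of letters is a description and no binding was measured. These 3 windows are shown because they hold the matches and, for Wdfy4, because its groups were separate. They end 1 base before the start, and capitals mark the match.
Wdfy4, chr14:33185067-33185316, minus strand: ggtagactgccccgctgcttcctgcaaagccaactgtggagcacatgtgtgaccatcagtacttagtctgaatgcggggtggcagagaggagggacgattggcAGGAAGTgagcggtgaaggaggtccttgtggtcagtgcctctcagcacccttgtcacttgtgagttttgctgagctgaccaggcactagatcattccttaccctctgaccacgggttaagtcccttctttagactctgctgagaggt
Zbtb46, chr2:181424389-181424638, minus strand: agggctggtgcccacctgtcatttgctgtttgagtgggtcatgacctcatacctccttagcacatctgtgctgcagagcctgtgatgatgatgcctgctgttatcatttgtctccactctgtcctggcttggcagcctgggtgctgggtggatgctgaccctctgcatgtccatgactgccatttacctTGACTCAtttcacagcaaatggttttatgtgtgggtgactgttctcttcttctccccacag
Fscn1, chr5:142960105-142960354, plus strand: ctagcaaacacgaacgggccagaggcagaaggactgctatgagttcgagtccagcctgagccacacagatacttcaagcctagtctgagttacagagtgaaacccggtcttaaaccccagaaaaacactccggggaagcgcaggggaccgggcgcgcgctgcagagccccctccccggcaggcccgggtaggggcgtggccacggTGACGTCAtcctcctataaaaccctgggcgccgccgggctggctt
In these windows the PU.1 core of Wdfy4 begins 147 bases before the start, the AP-1 site of Zbtb46 61 bases and the response element of Fscn1 45 bases before it. GC content over the 8 windows ran from 38.8% in Xcr1 to 76.0% in Batf3.

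Levels per gene length, in the deposited FPKM, spanned a wide range across the 9 genes. Fscn1, which encodes the actin-bundling protein fascin and is also made by many carcinoma cells, was the most abundant at 135 ± 20.7 FPKM (SD, n = 6 libraries, both groups). Naaa followed at 25.95 ± 6.68 FPKM and Ly75 at 11.1 ± 1.91 FPKM, and neither range overlapped its neighbors. Batf3 (5.23 FPKM), Cd83 (4.19 FPKM), Wdfy4 (2.67 FPKM) and Zbtb46 (1.77 FPKM) came next, and in that order each overlapped the next in its range over libraries. Flt3 at 0.539 ± 0.300 FPKM and Xcr1 at 0.390 ± 0.279 FPKM were lowest, below Zbtb46 in every library, and overlapped each other.

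**Figure D2:**
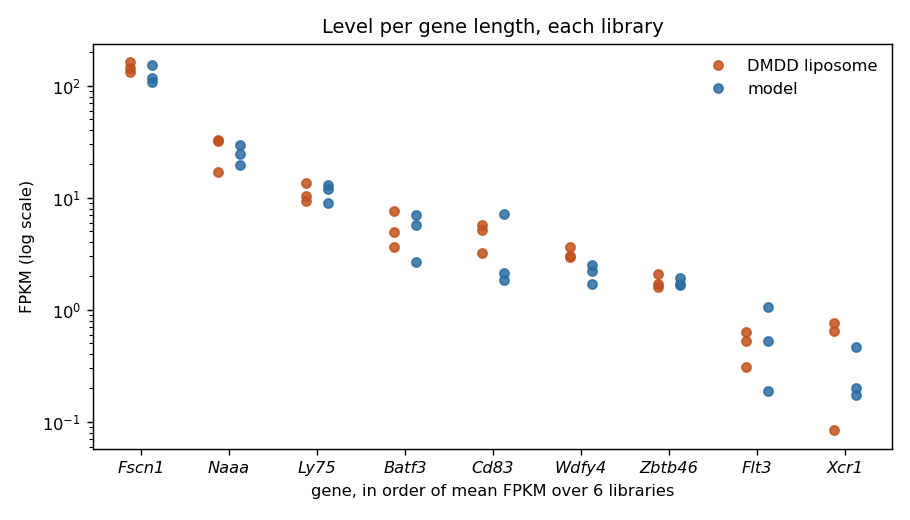
Deposited FPKM of each gene in each library on a log axis, in order of the mean over 6 libraries, DMDD liposome left of model. Fscn1 lies between 107 and 161 FPKM, and Xcr1 between 0.0837 and 0.767 FPKM.

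Among genes of type 1 cells, Wdfy4 encodes a BEACH domain protein required for cross-presentation. Wdfy4 had 506, 414 and 439 counts in DMDD liposome replicates 1 to 3, against 332, 347 and 268 in model replicates 1 to 3, or 35.8, 31.3 and 29.9 CPM against 25.4, 22.4 and 17.6 CPM. Each DMDD liposome library was above every model library, the nearest pair being DMDD liposome replicate 3 and model replicate 1. The means were 32.3 ± 3.10 CPM in DMDD liposome and 21.8 ± 3.96 CPM in model (SD, n = 3 each), and edgeR gave a log2 fold change of 0.57 ± 0.17 (SE), or 1.48-fold (unadjusted p = 0.00961, adjusted p = 0.626). In the authors' deposited table, whose fold changes are model over DMDD liposome, Wdfy4 stood at -0.56 with an adjusted p of 0.258. The 11 other fits, those without 1 library included, gave 0.42 to 0.69, with adjusted p from 0.108 to 0.999. The summed level of macrophage and monocyte markers was separate in the same way, but not most of its genes: the 14 genes summed to 3992, 2898 and 3259 CPM in DMDD liposome replicates 1 to 3, against 2866, 2281 and 1380 CPM in model replicates 1 to 3. Lyz2, the lysozyme of myeloid cells, had 24486, 14661 and 16310 counts in DMDD liposome against 13259, 10014 and 5049 in model. Without Lyz2 the other 13 summed to 2258, 1790 and 2148 CPM in DMDD liposome against 1849, 1635 and 1049 CPM in model, and the groups overlapped. Of the 14 genes 13 had a log2 fold change above 0 (median 0.47), against 51.2% of all genes tested. EdgeR called 0 of them, and 0% of all genes tested. Of the 14, 2 did not overlap between groups, against 12.9% of all genes tested. These were Lyz2 and Mertk, a receptor for apoptotic cells, which had 256, 216 and 337 counts in DMDD liposome against 93, 95 and 76 in model (edgeR adjusted p = 0.603; 1.55e-06 in the authors' deposited table). The part of these markers in the result was not tested.

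Xcr1, the chemokine receptor that defines type 1 cells, had 47, 5 and 42 counts in DMDD liposome replicates 1 to 3, against 27, 12 and 14 in model replicates 1 to 3. The lowest and the highest library were both in the DMDD liposome group, and the groups overlapped. At 2.19 ± 1.59 CPM in DMDD liposome and 1.25 ± 0.710 CPM in model (SD, n = 3 each), the log2 fold change was 0.82 ± 0.75 (edgeR adjusted p = 0.816), with a 95% interval of -0.92 to 2.56. Without DMDD liposome replicate 2 it was 1.31, and without DMDD liposome replicate 1 it was 0.39.

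Naaa, a lysosomal amidase that breaks down N-acylethanolamines, had 1086, 546 and 1136 counts in DMDD liposome, against 769, 1109 and 745 in model. DMDD liposome replicate 2 was again the lowest of all 6 libraries, while DMDD liposome replicates 1 and 3 were the highest in CPM. The means of 65.2 ± 20.7 CPM in DMDD liposome and 59.8 ± 11.3 CPM in model differed by less than the spread within groups (log2 fold change 0.13 ± 0.26, edgeR adjusted p = 0.916). Its sign turned without DMDD liposome replicate 1 (-0.0099), DMDD liposome replicate 3 (-0.017) or model replicate 3 (-0.013).

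Batf3, the transcription factor of type 1 cells that activated T cells also express, had 54, 39 and 88 counts in DMDD liposome, against 28, 86 and 71 in model. Model replicate 1 was lowest and DMDD liposome replicate 3 highest, and the groups overlapped. The log2 fold change was 0.04 ± 0.43 (edgeR adjusted p = 0.987), with a 95% interval of -0.95 to 1.04, and it was -0.29 when DMDD liposome replicate 3 was left out and -0.26 when model replicate 1 was. In DMDD liposome replicate 2, low for Xcr1 and Naaa, 8 T cell markers summed to 22.4 CPM, against 102 and 78.8 CPM in DMDD liposome replicates 1 and 3 and 35.3 to 44.0 CPM in model. Cd74, the invariant chain of MHC class II, had 9390 counts in DMDD liposome replicate 2, against 37495 and 45769 in replicates 1 and 3 of that group and 29302 to 30048 in model. The part of these differences in the Xcr1, Naaa and Batf3 values was not tested.

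Flt3, the receptor tyrosine kinase for the growth factor on which dendritic cell development depends, had 32, 15 and 28 counts in DMDD liposome, against 9, 30 and 60 in model. The model libraries held both extremes. The log2 fold change was -0.31 ± 0.61 (1.77 ± 0.579 CPM in DMDD liposome and 2.19 ± 1.64 CPM in model, SD, n = 3 each, edgeR adjusted p = 0.913), with a 95% interval of -1.73 to 1.11. It was 0.40 without model replicate 3. Flt3l, the ligand, had 31, 34 and 16 counts in DMDD liposome against 21, 35 and 66 in model, and model replicate 3 was the highest library for both receptor and ligand. Xcl1, the ligand of XCR1 that natural killer and CD8 T cells secrete, had 8, 5 and 9 counts in DMDD liposome against 4, 24 and 18 in model and fell under the count filter. In these values the ligand was not highest where its receptor was: model replicate 2 led for Xcl1, and DMDD liposome replicate 1 for Xcr1.

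Zbtb46, a zinc finger factor of the conventional lineage that endothelial cells also express, had 150, 138 and 195 counts in DMDD liposome, against 161, 165 and 170 in model. It varied least of the 9 across libraries, with its highest CPM 1.27 times its lowest. The log2 fold change was 0.01 ± 0.18 (11.4 ± 1.599 CPM in DMDD liposome and 11.4 ± 0.873 CPM in model, SD, n = 3 each, edgeR adjusted p = 0.994), with a 95% interval of -0.41 to 0.43. Its sign turned in 4 of 11 other fits, among them those without DMDD liposome replicate 3 (-0.11), model replicate 2 (-0.044) or model replicate 3 (-0.017). Endothelial markers (8 genes) summed to 306, 390 and 272 CPM in DMDD liposome and to 338, 177 and 208 CPM in model. All 8 had a log2 fold change above 0 (median 0.59), against 51.2% of all genes tested. By edgeR's unadjusted p under 0.05, 4 were higher in DMDD liposome and 0 lower, against 4.34% and 3.31% of all genes tested. Of the 8, 1 was higher without overlap between groups, against 7.21% of all genes tested, and edgeR called 0. The part of these markers in the Zbtb46 values was not tested.

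**Figure D3:**
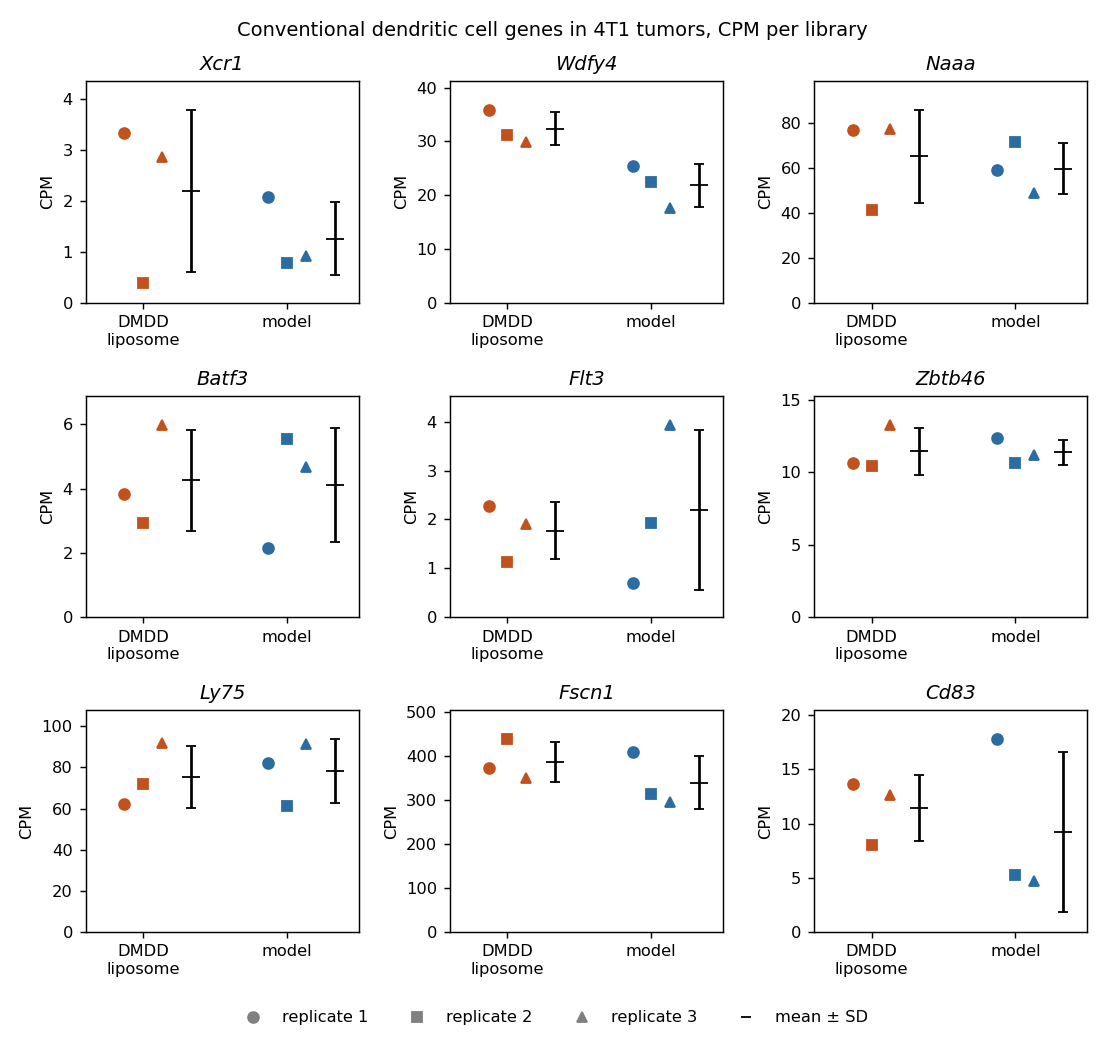
CPM of each gene in each library, with axes from 0; symbols mark replicates and bars the mean ± SD of 3 libraries, DMDD liposome left of model. Wdfy4 is the gene whose groups are separate, at 29.9 to 35.8 CPM in DMDD liposome and 17.6 to 25.4 CPM in model.

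Of the genes of uptake and maturation, Ly75 encodes the endocytic receptor DEC-205, which delivers antigen to late endosomes and is also found on other cells. Ly75 had 880, 953 and 1349 counts in DMDD liposome, against 1070, 949 and 1394 in model, so that the groups covered nearly the same range. The log2 fold change was -0.05 ± 0.19 (75.4 ± 15.1 CPM in DMDD liposome and 78.3 ± 15.5 CPM in model, edgeR adjusted p = 0.960), with a 95% interval of -0.50 to 0.40, and it was 0.067 when DMDD liposome replicate 1 was left out and 0.063 when model replicate 3 was.

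Fscn1 had 5249, 5793 and 5112 counts in DMDD liposome, against 5316, 4869 and 4488 in model. Model replicate 1 lay among the DMDD liposome libraries and the other model libraries below them. The log2 fold change was 0.19 ± 0.16 (386 ± 46.3 CPM in DMDD liposome and 339 ± 60.4 CPM in model, edgeR adjusted p = 0.801), and ran from 0.081 (without DMDD liposome replicate 2) to 0.34 (without model replicate 1) when 1 library was left out, with 0.085 without model replicate 3. Epithelial tumor cell markers (8 genes) ran the other way, at 3801, 3444 and 4015 CPM in DMDD liposome replicates 1 to 3 against 3555, 6465 and 5842 CPM in model replicates 1 to 3. Model replicate 1 thus stood with the DMDD liposome libraries in both quantities. Of the 8 epithelial genes 7 had a log2 fold change below 0 (median -0.58), against 51.2% of all genes tested above 0. By edgeR's unadjusted p under 0.05, 4 were lower and 0 higher, against 3.31% and 4.34% of all. Of the 8, 2 were lower without overlap, against 5.66%, and edgeR called 0. The authors' deposited table called 1, Cldn7 (adjusted p = 0.0206), and 0.346% of its genes. The part of these markers in the Fscn1 values was not tested.

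Cd83, a surface marker of mature dendritic cells that activated B cells and other leukocytes also carry, had 193, 106 and 186 counts in DMDD liposome, against 232, 81 and 71 in model. Model replicate 1 was the highest library, while model replicates 2 and 3 were the lowest. The means of 11.4 ± 3.02 CPM in DMDD liposome and 9.22 ± 7.42 CPM in model gave a log2 fold change of 0.32 ± 0.52 (edgeR adjusted p = 0.894). It was 1.21 without model replicate 1 (adjusted p = 0.116) and -0.011 without model replicate 3. B cell markers were close to 0: 6 genes summed to 1.13 to 1.84 CPM in DMDD liposome and 0.197 to 1.35 CPM in model, and Ms4a1, which marks B cells, had at most 2 counts in a library.

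**Figure D4:**
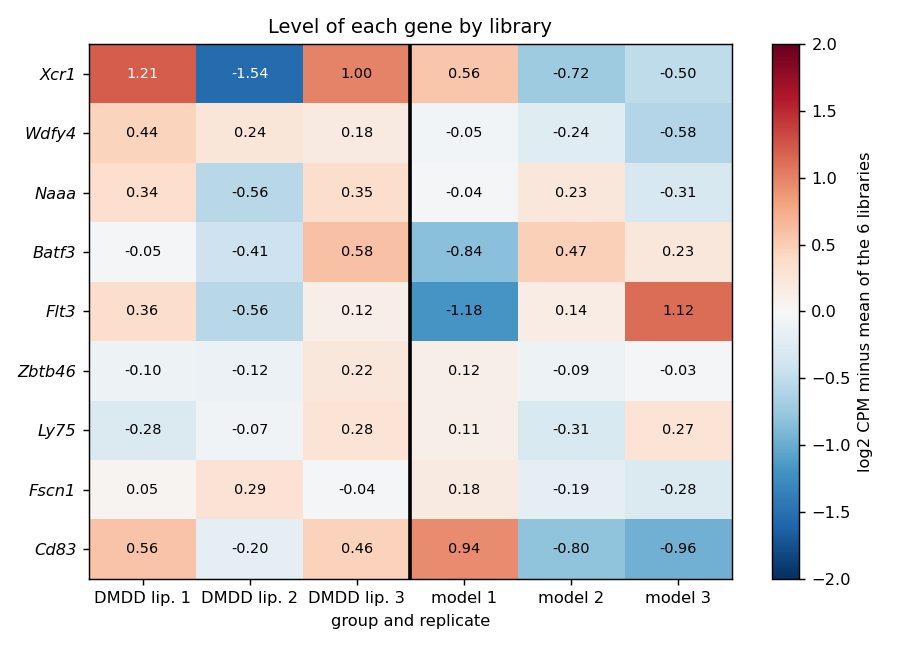
Log2 CPM of each gene minus its mean over 6 libraries, DMDD liposome libraries left of model. Xcr1 is at -1.54 in DMDD liposome replicate 2 and 1.21 in replicate 1, while Flt3 is at -1.18 in model replicate 1 and 1.12 in model replicate 3.

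Libraries did not order the 9 genes alike. DMDD liposome replicate 3 was the highest library for 4 of them and DMDD liposome replicate 1 for 2, while model replicate 3 and DMDD liposome replicate 2 were each the lowest for 3. The root mean square difference between centred log2 CPM of 2 genes over the 6 libraries measured how alike their patterns were. By it, Zbtb46 and Ly75 were nearest to each other (0.17), and Flt3 and Cd83 were farthest apart (1.29). Xcr1 and Flt3, which type 1 cells both carry, differed by 1.21. Outside the 9, the genes nearest to Xcr1 were Gzmk, a granzyme of T cells (0.18), Fgf1, a fibroblast growth factor (0.30) and Hunk, a protein kinase (0.31). Nearest to Flt3 were Rgs22 (0.21), Mxd3, a partner of MAX in proliferating cells (0.25), and Aspm, a protein of the mitotic spindle (0.28). Nearest to Fscn1 were Arhgap31, a GTPase-activating protein (0.03), Peli3, a ubiquitin ligase (0.03), and Myl6b, a myosin light chain (0.04). Genes that vary little lie close to many others, and Fscn1 varied by 1.49 times between its highest and lowest CPM, against 8.81 times for Xcr1.

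Other genes of the pathway gave no call in any of the lists below, as edgeR called 0 of all 12891 genes tested. Of 14 further genes of type 1 cells 13 were tested, 0 passed the adjusted test in either direction, and the median log2 fold change was -0.00039. By unadjusted p under 0.05, 1 was higher in DMDD liposome and 0 were lower, against 4.34% and 3.31% of all genes tested. Of the 13, 1 was higher without overlap between groups, against 7.21% of all genes tested. In both counts that gene was Clec9a, the receptor with which type 1 cells recognize dead cells, singled out after its values were seen. Clec9a had 50, 16 and 36 counts in DMDD liposome, against 14, 13 and 8 in model, without overlap in CPM, and a log2 fold change of 1.56 ± 0.51 (2.40 ± 1.17 CPM in DMDD liposome and 0.812 ± 0.275 CPM in model, edgeR unadjusted p = 0.0163, adjusted p = 0.626). Cd24a, a surface glycoprotein also of epithelial cells, and Irf8, the partner of BATF3, were the most abundant of the list and stood at -0.10 ± 0.14 and -0.19 ± 0.17. Irf8 had 1446, 1164 and 1829 counts in DMDD liposome against 1259, 1974 and 2081 in model.

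Of 12 genes of type 2 conventional cells 9 were tested and 0 called, with a median of 0.21. By unadjusted p under 0.05, 1 was higher and 1 lower, against 4.34% and 3.31% of all genes tested. Of the 9, 1 was higher and 1 lower without overlap between groups, against 7.21% and 5.66% of all genes tested. Sirpa, an inhibitory receptor shared with macrophages, was the most abundant, with 170 ± 2.67 CPM in DMDD liposome and 130.5 ± 16.3 CPM in model, no overlap, and a log2 fold change of 0.38 ± 0.11 (edgeR unadjusted p = 0.00987, adjusted p = 0.626). Mgl2, a C-type lectin, stood at -0.26 ± 0.21. Cd209a, a lectin of type 2 and monocyte-derived cells, chosen after its values were seen, had 2, 3 and 1 counts in DMDD liposome against 4, 13 and 16 in model, too few to pass the count filter. Tnip3, an inhibitor of NF-kB signaling that was chosen likewise, was the list's lower gene by unadjusted p, at -0.97 ± 0.33 (edgeR adjusted p = 0.626).

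Of 19 genes of mature, migratory dendritic cells 16 were tested and 0 called, with a median of -0.00059 and 8 above 0 and 8 below. By unadjusted p under 0.05, 0 were higher and 0 lower, against 4.34% and 3.31% of all genes tested. Of the 16, 1 was higher without overlap between groups and 0 lower, against 7.21% and 5.66% of all genes tested. The most abundant, Marcksl1 and Tmem123, are broadly expressed and stood at 0.34 ± 0.24 and -0.04 ± 0.09. Of 5 genes for growth factors and ligands of dendritic cells 4 were tested and 0 called. Kitl, the KIT ligand, stood at 0.46 ± 0.32, and Il15, which sustains natural killer and CD8 T cells, at -0.34 ± 0.30. Of 12 genes of cross-presentation and antigen loading all 12 were tested and 0 called, with a median of 0.09. Among them 1 was higher by unadjusted p under 0.05 and 0 lower, against the same 4.34% and 3.31%. B2m, the light chain of MHC class I, stood at 0.09 ± 0.17 and Cd74 at 0.08 ± 0.47.

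**Figure D5:**
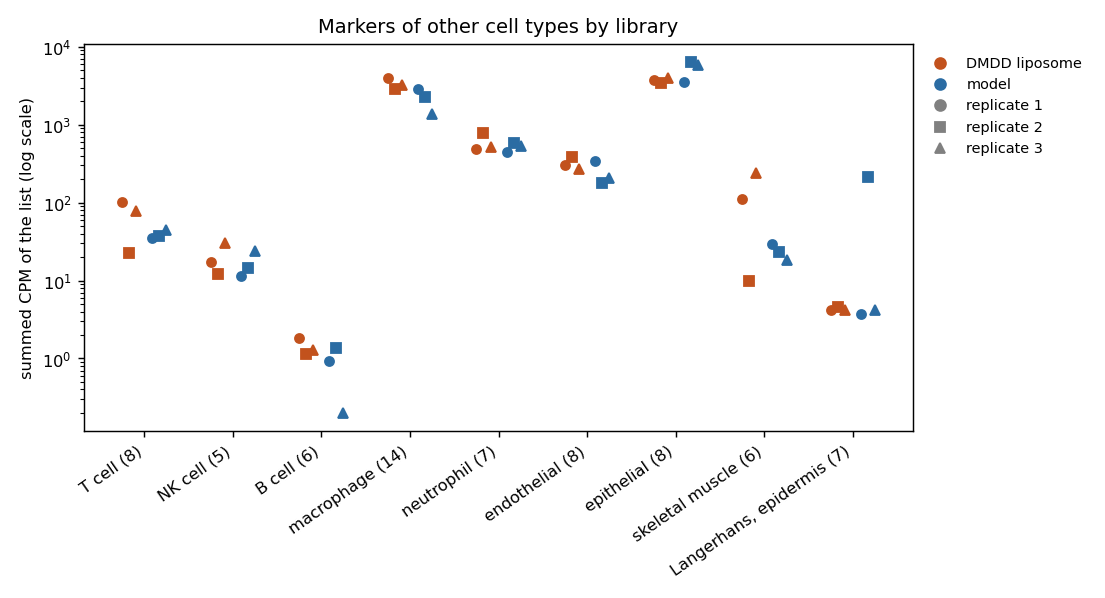
Summed CPM of marker lists of other cell types in each library on a log axis, with the number of genes in brackets, DMDD liposome left of model. T cell and skeletal muscle markers are lowest in DMDD liposome replicate 2, and epidermal markers stand at 216 CPM in model replicate 2.

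Markers of other cell types gave the surroundings of these values. Natural killer cell markers (5 genes) summed to 17.1, 12.2 and 30.5 CPM in DMDD liposome and to 11.6, 14.4 and 24.0 CPM in model. Lymph node stroma markers were near 0, with 3 genes that summed to at most 0.708 CPM in DMDD liposome and at most 1.29 CPM in model. Of the plasmacytoid dendritic cell markers, Siglech, a defining receptor, had 7, 8 and 4 counts in DMDD liposome against 4, 36 and 20 in model, and Pld4 had 1 count in 1 library and 0 in the others. The list's most abundant gene, Tcf4, which other tissues also express, stood at 0.29 ± 0.16. The Langerhans cell gene Cd207 had 1, 2 and 0 counts in DMDD liposome and 1, 15 and 5 in model, highest in model replicate 2, the library with epidermal markers. Ly75, which Langerhans cells also carry, was lowest there by CPM. Neutrophil markers (7 genes) summed to 484, 774 and 514 CPM in DMDD liposome and to 442, 578 and 532 CPM in model. The largest part of that sum was Mmp9, a secreted protease that other cells also make, at 362, 603 and 416 CPM in DMDD liposome against 202, 389 and 317 CPM in model. Without Mmp9 the other 6 summed to 123, 171 and 97.6 CPM in DMDD liposome against 240, 189 and 215 CPM in model, each DMDD liposome library below every model library. Of the 6 neutrophil markers tested 5 had a log2 fold change below 0, and the median of the 6 was -0.64. Gene by gene, 1 of the 6, S100a9, was lower without overlap between groups, against 5.66% of all genes tested, and the rest overlapped. Ly6g, under the count filter, had 5, 5 and 17 counts in DMDD liposome against 7, 6 and 2 in model. S100a9, a calcium-binding protein of neutrophils, stood at -0.93 ± 0.23 (edgeR adjusted p = 0.626; 0.0440 in the authors' deposited table).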

How the data were processed

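Per the labels' protocols, tumor RNA was isolated with Trizol and its libraries prepared with NEBNext Ultra reagents, and groups and replicate numbers came from the sample descriptions. Those call the animals rats, while strain and organism name a mouse. Sex is printed as the labels give it, male, although the tumors are called breast tumors. The authors deposited 1 table: read counts, a signal that is counts divided by a size factor per library, FPKM, and their log2 fold changes (model over DMDD liposome) with p-values. FPKM followed from the counts and 1 gene length within 0.01 of a base for all 16763 genes. The submitters' processing notes name DESeq2 without a version and build mm9; the aligner, the counter, gene annotation and strandedness are not stated, so reads of overlapping genes cannot be told apart.

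The deposited counts went into edgeR 4.0.16 (R 4.3.3): filterByExpr (minimum count 10, minimum total 15), TMM scaling, and the two-sided quasi-likelihood test of DMDD liposome against model over 6 libraries, with Benjamini-Hochberg adjustment over 12891 genes and a threshold of 0.05. SEs came from the F statistic. Log2 CPM used a prior count of 2. Alternatives were DESeq2 size factors, no count filter, DESeq2 1.42.0, limma-voom (limma 3.58.1) with sample weights, a replicate block, a threshold of 0.01 and leaving out each library. The procedure was tested on simulated data. No library was a copy of another.

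The 9 genes and all lists were chosen with earlier results of these data known. Named genes were the 9, the 2 most abundant by FPKM of each dendritic cell list, those past the threshold, Xcl1 and Flt3l, and the 3 nearest in pattern to Xcr1, Flt3 and Fscn1, predicted genes left out. The rule also takes 2 genes of each marker list of another cell type; those lists are mostly given as sums, also without their most abundant gene (added after seeing the data). Mertk, Ms4a1, Siglech, Pld4, Cd207, Cd209a and Tnip3 fall outside the rule and were chosen after their values were seen; 1 B cell marker is not reported here. Promoter sequences are RefSeq's, build GRCm38.p6.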

Additional observations from a re-analysis of the deposited data

How the results depend on the processing

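No fit called any of the 9 genes, by edgeR, DESeq2 or limma-voom. Over all genes 0 were called in the fit as reported, with DESeq2 size factors, without a count filter, with limma-voom and at a threshold of 0.01, while DESeq2's test called 59. Leaving out 1 library gave 0 to 112 calls, the 112 without model replicate 1. The median log2 fold change of the 9 genes ran from -0.017 (without DMDD liposome replicate 3) to 0.24 without 1 library, and from 0.092 to 0.18 in the other fits. Wdfy4, Xcr1 and Fscn1 were above 0 in 11 of 11 other fits. Zbtb46 was at -0.0067 without a count filter. When 1 library was left out, the log2 fold change ran from -0.11 to 0.071 for Zbtb46, from -0.017 to 0.36 for Naaa, from -0.29 to 0.31 for Batf3, from -0.22 to 0.067 for Ly75, from -0.73 to 0.40 for Flt3 and from -0.011 to 1.21 for Cd83, so that the sign of each of these turned; it ran from 0.081 to 0.34 for Fscn1. The cause was not tested. Same-numbered libraries of the groups deviated together with correlations of 0.0876, 0.114 and 0.121 for replicates 1 to 3, which does not pair them, although each correlated best with its own number. The replicate block called 0 genes, 0 of the 9 among them, with a median of 0.092. Depth limits Xcr1 and Flt3, with 5 to 60 counts a library.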
